A study of Mus musculus with 69 samples.

Results

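Adipose tissue surrounds the kidney and enters it at the hilum, and its genes can be read in RNA prepared from a whole kidney. The 10 genes described here are known from brown and white fat: Ucp1, Cidea, Elovl3, Cox7a1, Cox8b, Adipoq, Plin1, Fabp4, Retn and Cfd. They were taken by symbol from a mouse kidney count table of 24411 genes, and each of the 10 had a row. The question for them was whether they rise and fall together from library to library, and how they differ between pulldown and total RNA and between injured and control mice.

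The study labelled new RNA in cells chosen by a Cre driver. Each mouse carried a Cre-dependent Toxoplasma gondii uracil phosphoribosyltransferase (UPRT f/+), switched on by Hoxb7Cre in several cell types of the collecting duct, or by a Cre that the labels spell Atp6b1v1Cre, which acts in intercalated cells and in cells that also carry a principal cell marker. 4-thiouracil was injected at 430 mg/kg 4 hours before dissection, and the thiolated RNA was biotinylated and pulled down from whole-kidney RNA, while total RNA was sequenced from control kidneys without pulldown. iAKI mice had both renal pedicles clamped for 10 minutes and were labelled 24 hours later; vAKI mice went 72 hours without food and water. The 69 libraries were 10 Control, 7 iAKI and 7 vAKI Hoxb7 Pulldown, 11 Control, 6 iAKI and 7 vAKI Atp6b1v1 Pulldown, and 21 Control Total, from mice of both drivers. Mice were 5.5 months old by the labels, apart from controls of 3 months in 2 Hoxb7 Pulldown, 3 Atp6b1v1 Pulldown and 5 Total libraries. Both sexes were present in every group, all mice carried the Cre and the UPRT allele, and the line had been backcrossed to C57BL/6J for 5 generations.

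Library totals ran from 12618062 to 30305464 counts, with a median of 20868430. The 4 collecting duct genes Aqp2, Aqp3, Foxi1 and Slc26a4 summed to a median of 2233 CPM, counts scaled to a common library total, in Control Hoxb7 Pulldown, 1031 in Control Atp6b1v1 Pulldown and 792 in Control Total, and 4 of the 4 were called higher in Hoxb7 Pulldown than in Total. In Atp6b1v1 Pulldown 2 of the 4 were called higher (Foxi1 and Slc26a4) and 1 lower (Aqp2). An 11-gene adrenal list exceeded 100 CPM in 13 libraries, 1 of them among the 22 male pulldowns used for the injury tests. The library numbers fall into series A (up to 40), B (65 to 85) and C (98 and up); the iAKI and vAKI Hoxb7 pulldowns all lie in series A, and whether series were prepared apart is not stated.

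Brown adipocytes burn fatty acids for heat through Ucp1, a proton channel of the inner mitochondrial membrane. Cidea is a lipid droplet protein and a common brown fat marker, Elovl3 extends very long chain fatty acids in brown fat, and Cox7a1 and Cox8b are subunits of cytochrome c oxidase found mainly in muscle and brown fat. Plin1 coats the lipid droplets of fat cells of both kinds, and Fabp4 carries fatty acids in fat cells, macrophages and capillary endothelium. Adipoq, Retn and Cfd encode the secreted proteins adiponectin, resistin and adipsin, which fat releases into the blood.

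The genes lie on separate chromosomes or far apart (GENCODE vM21, GRCm38, the mm10 build): Ucp1 at chr8:83290352-83298452, Adipoq at chr16:23146536-23158028, Plin1 at chr7:79720218-79732903, Cox8b at chr7:140898945-140900446, Retn at chr8:3655770-3660110 and Cfd at chr10:79890853-79892655. 7 of the 10 had a RefSeq promoter window (GRCm38.p6, 250 bases before to 50 after the start). The windows of Ucp1 (chr8:83290098-83290397, + strand) and Adipoq (chr16:23146286-23146585, + strand) are printed because these genes stand for the brown and the secreted set described further on. Capitals mark AGGTCA, the half-site of nuclear receptors such as PPARG, the CCAAT box and the TATAAA box, each searched on both strands.
Ucp1: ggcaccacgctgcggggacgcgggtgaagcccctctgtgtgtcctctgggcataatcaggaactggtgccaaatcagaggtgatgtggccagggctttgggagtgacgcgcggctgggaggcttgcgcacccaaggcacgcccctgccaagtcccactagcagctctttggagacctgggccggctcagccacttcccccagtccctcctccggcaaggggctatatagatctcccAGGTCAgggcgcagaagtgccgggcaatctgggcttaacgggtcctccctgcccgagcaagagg
Adipoq: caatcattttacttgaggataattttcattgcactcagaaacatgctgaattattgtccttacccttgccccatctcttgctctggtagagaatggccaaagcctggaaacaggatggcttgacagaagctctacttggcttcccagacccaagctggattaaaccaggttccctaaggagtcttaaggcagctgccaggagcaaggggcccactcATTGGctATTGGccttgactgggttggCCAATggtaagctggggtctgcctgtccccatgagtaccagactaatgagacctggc
AGGTCA was found in the Ucp1 window, 14 bases before the start, and in no other of the 7 windows; 16.3% of 32851 promoter windows hold it. CCAAT was found in the windows of Adipoq and Cox7a1, and 37.4% of all windows hold it. TATAAA was found in that of Cox8b, against 13.6% of all windows. TGACGTCA, the cyclic AMP response element, was in none of the 7 (1.79% of all windows).

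Every one of the 10 genes had counts in the total RNA of all 21 control kidneys, and their levels there differed widely. Per kilobase of exon (union of annotated exons), so that genes can be compared, Cfd was highest at 136.0 ± 80.1 CPM per kb (SD, n = 21), followed by Fabp4 at 55.9 ± 11.9, Cox7a1 at 35.2 ± 5.84, Ucp1 at 31.1 ± 16.7 and Cox8b at 23.9 ± 9.98. For Fabp4 the union was 4489 bases, the whole span of the gene (chr3:10204088-10208576), so any intron counts as exon. Its value per kb may therefore be too low, and its place below Cfd is uncertain. Adipoq stood at 20.2 ± 8.40, Cidea at 18.3 ± 7.51, Retn at 6.96 ± 4.595, Plin1 at 3.20 ± 1.08 and Elovl3 at 1.58 ± 1.22 CPM per kb. In this order Cox7a1 and Ucp1, Ucp1 and Cox8b, Cox8b and Adipoq, and Adipoq and Cidea each differed by less than 1 SD of either gene, while Cox7a1 lay above Adipoq and Cidea by more than 1 SD of each. The muscle and brown fat forms of cytochrome c oxidase were a small share beside their widely expressed relatives, since Cox7a2 stood at 341 ± 38.9 and Cox8a at 966 ± 201 CPM per kb. Fabp5, the relative of Fabp4 known from skin, was at 2.18 ± 0.61 CPM per kb. Its union of 3567 bases also covers much of the gene (chr3:10012548-10016607), so this value may be too low as well.

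Levels per library, in CPM scaled by TMM (trimmed mean of M values) over the 69 libraries, spread widely. Ucp1 ran from 0.544 to 107.2 CPM (11 to 1798 counts), a 197-fold range. Cidea ran from 0.229 to 43.4 CPM, Adipoq from 0.775 to 58.3, Cfd from 0.726 to 324 and Retn from 0.0484 to 32.8. Plin1 had the narrowest range, 3.70 to 34.7 CPM, and Fabp4 ran from 27.97 to 344. Elovl3 was at 0 counts in 2 libraries, and Cox8b fell to 1 count in the lowest. In bulk RNA, fewer fat cells and less of a transcript per fat cell cannot be told apart.

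**Figure D1:**
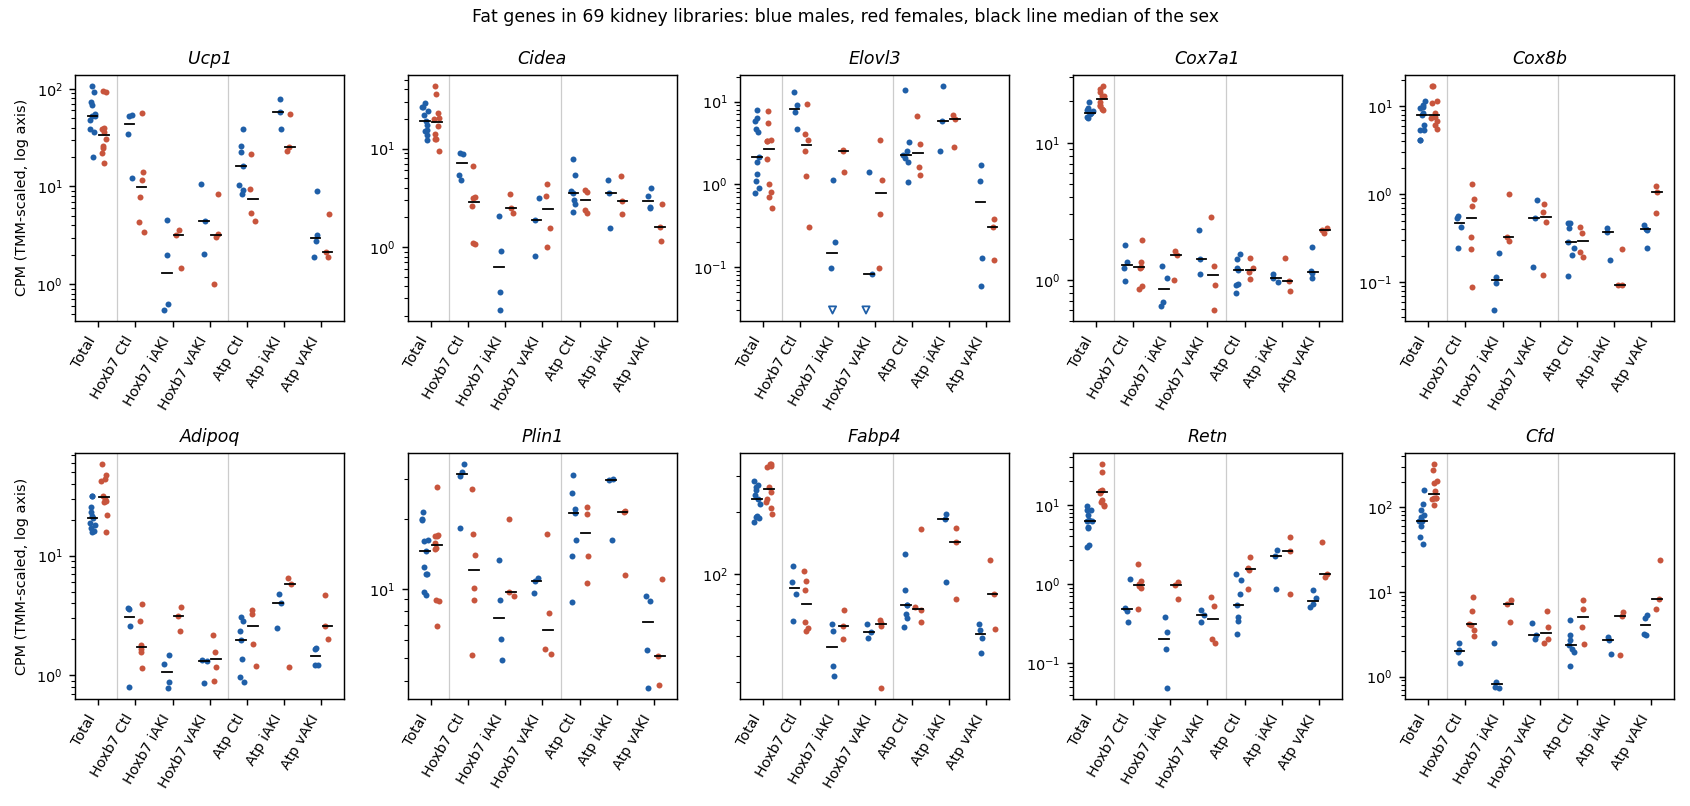
Level of each of the 10 genes in CPM (TMM-scaled, log axis) in the 69 libraries by group; blue points are males, red points females, black lines the median of each sex, and open triangles libraries at 0 counts. Ucp1 in the iAKI Hoxb7 males lies between 0.544 and 4.52 CPM, below the 12.1 to 53.8 CPM of the Control males, and Cox7a1 in total RNA lies between 15.0 and 26.1 CPM, above every pulldown library.

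The pulldown held less of most of the 10 genes than total RNA, and the size of the difference varied between genes. In Control Hoxb7 Pulldown against Control Total (42 controls, sex as a covariate, edgeR quasi-likelihood test, with genes called where the p adjusted by Benjamini-Hochberg was under 0.05 and the change at least 2-fold), 7 of the 10 genes were lower and none was higher. Of all 21175 genes tested, 17.9% were called lower. The median log2 difference was -2.83 for the 10 genes and 0.11 for all genes.

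Cfd had a median of 109.6 CPM in Total (lowest 37.2, highest 324, n = 21) and of 3.28 in Control Hoxb7 Pulldown (lowest 1.43, highest 8.76, n = 10). The libraries did not overlap, and the log2 difference was -5.16 (SE 0.26, adjusted p = 1.85e-22). Adipoq had a median of 25.3 CPM in Total (15.6 to 58.3) and 2.18 in the pulldown (0.790 to 3.96), and fell by 3.52 (SE 0.25). Cox7a1 had 17.7 CPM in Total (15.0 to 26.1) and 1.24 in the pulldown (0.862 to 1.94), and fell by 3.84 (SE 0.12). For these genes too no pulldown library reached the lowest Total library. Cox8b, Retn, Cidea and Fabp4 were the other genes called lower, with log2 differences of -3.98, -3.70, -2.14 and -1.63.

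Ucp1, Elovl3 and Plin1 stood apart. Ucp1 had a median of 39.4 CPM in Total (17.4 to 107.2) and 13.1 in Control Hoxb7 Pulldown (3.42 to 56.2), so the sets overlapped, and its log2 difference of -0.98 (SE 0.35, adjusted p = 0.0125) lay just short of 2-fold. When each of the 42 libraries was left out in turn it ran from -1.37 to -0.85 and was called in 10 fits, it was -1.08 with the series as a covariate, and it was -1.31 without the adrenal-rich libraries. Plin1, the lipid droplet coat, had 15.1 CPM in Total (6.87 to 27.7) and 17.8 in the pulldown (5.18 to 34.7), with a log2 difference of 0.44 (SE 0.21, adjusted p = 0.0626). Elovl3 had 2.14 CPM in Total (0.521 to 7.99) and 4.39 in the pulldown (0.307 to 13.2), with a log2 difference of 0.84 (SE 0.41, adjusted p = 0.0661). In males alone Elovl3 was called higher, at 1.36 (adjusted p = 0.0308), and Plin1 stood at 0.99 (adjusted p = 0.000672). In females alone Elovl3 stood at 0.36 (adjusted p = 0.617) and Plin1 at -0.07 (adjusted p = 0.882).

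Control Atp6b1v1 Pulldown was compared with the same Total libraries, so the comparisons share their controls. Here 8 of the 10 genes were called lower and none higher, and 16.4% of all genes tested were called lower. Ucp1 was among them here, with a median of 10.3 CPM (4.42 to 38.5, n = 11) and a log2 difference of -1.79 (SE 0.36, adjusted p = 2.06e-05). The log2 difference was -4.94 for Cfd, -4.67 for Cox8b, -3.94 for Cox7a1, -3.61 for Adipoq, -3.26 for Retn, -2.49 for Cidea and -1.57 for Fabp4, all called, while Plin1 (0.34, adjusted p = 0.148) and Elovl3 (0.18, adjusted p = 0.727) were not called. Between the pulldowns of the 2 drivers none of the 10 genes was called by edgeR or by DESeq2, and 1 had an unadjusted p under 0.05. Of all genes, 4.11% were called in either direction there, and the log2 differences of the 10 genes ran from -0.81 (Ucp1, SE 0.39) to 0.45 (Retn, SE 0.30).

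The other fat genes were mixed in Hoxb7 Pulldown against Total. Of 14 other brown fat genes 6 were called higher, among them Dio2 (2.29) and Prdm16 (1.79), and 1 lower (Fabp3, -2.76), and of 24 other adipocyte genes 2 were called higher (Acvr1c, 2.16, and Lep, 1.48) and 8 lower, among them Car3 (-2.72) and Cd36 (-2.56). In Atp6b1v1 Pulldown the counts were 5 higher and 2 lower of the 14, and 3 higher and 6 lower of the 24. Of all genes, 17.9% were called lower in Hoxb7 Pulldown and 16.4% in Atp6b1v1 Pulldown. The share of all genes called higher is not given, so counts of genes called higher against Total are descriptive. Some markers of cells outside the collecting duct were lower in Hoxb7 Pulldown too: 5 of 7 endothelial, 3 of 3 podocyte, 3 of 3 proximal tubule and 2 of 2 thick ascending limb genes were called lower and none higher. Other lists fell less: 3 of 7 macrophage, 4 of 11 adrenal, 1 of 4 lymphocyte, 1 of 4 urothelium and 1 of 3 mesothelium genes were called lower and none higher. Of 12 skeletal muscle genes 5 were called lower and 1 higher. In Atp6b1v1 Pulldown 3 of 4 lymphocyte genes were called higher, and 0 of 7 macrophage genes were called.

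Of 19 relatives of the 10 genes 9 were called lower and 1 higher (Ucp3, 1.57) in Hoxb7 Pulldown against Total. Cox7a2, the widely expressed form of Cox7a1, fell by 3.56 (SE 0.08) in Hoxb7 Pulldown against Total, and Cox8a, the common form of Cox8b, fell by 3.56 (SE 0.13). Over all protein-coding genes with a mean of at least 1 CPM, the median log2 difference was -2.55 for exon lengths under 1 kb (194 genes, with Cox7a1, Cox8b and Cfd among them), -1.17 for 1 to 2 kb (1330 genes, with Ucp1, Cidea, Elovl3, Adipoq and Retn) and 0.32 for 4 kb and over (7454 genes, with Plin1 and Fabp4). Exon length thus moved with the pulldown-to-total difference, and its part in the values of the 10 genes was not tested. Fabp4 is in the longest class only because its annotated exons span the whole gene, so its class is uncertain.

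**Figure D2:**
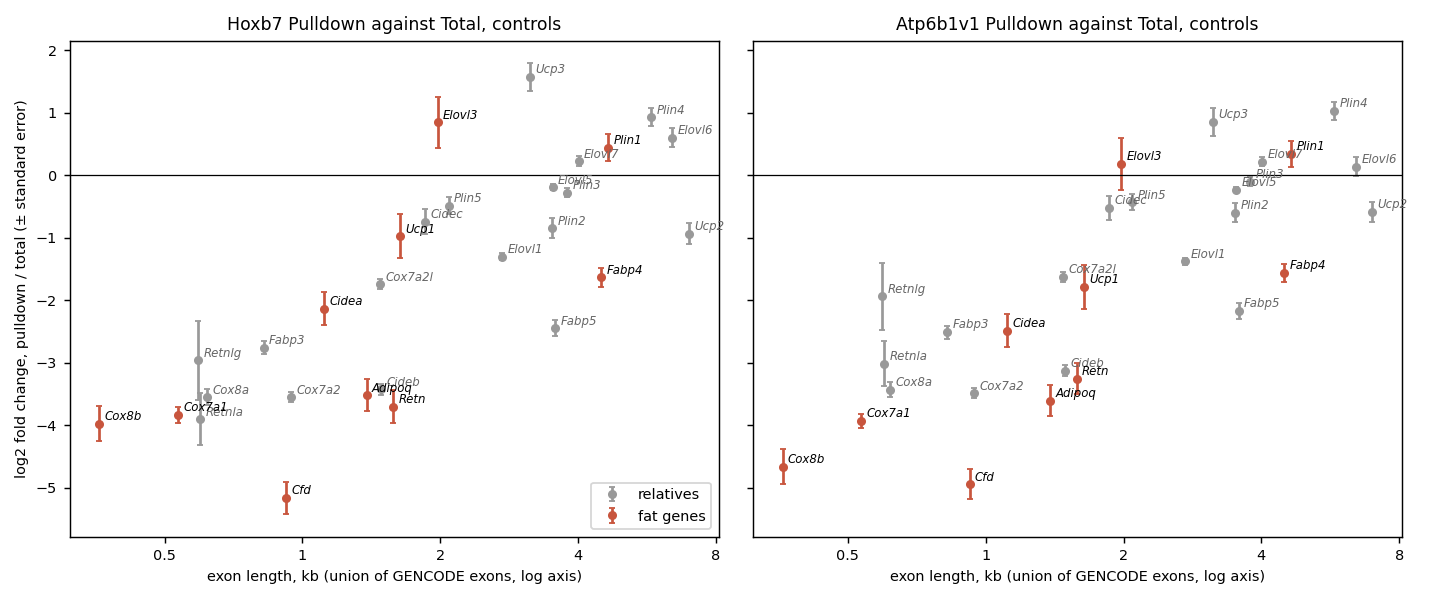
Log2 fold change of control pulldown against control total RNA (y axis, error bars 1 standard error) against exon length in kb (log axis) for the 10 fat genes in red and 19 relatives of the same families in grey; Hoxb7 left, Atp6b1v1 right. Cfd lies lowest, at -5.16 and -4.94, Plin1 and Elovl3 lie above 0 in both panels, and Cox7a2 lies near Cox7a1. The exon length drawn for Fabp4 is its whole gene span.

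In males of the Hoxb7 driver the fat genes were lower after ischaemia. The iAKI test used 22 male pulldowns of 5.5 months, 4 of them Control and 4 iAKI of this driver, and 6 of the 10 genes were called lower and none higher: Ucp1, Cidea, Elovl3, Cox8b, Adipoq and Plin1. Of all 21175 genes, 0.784% were called lower. The median log2 fold change was -1.65 for the 10 genes and 0 for all genes, and all 10 had a negative value. The labels do not say that the libraries of a group come from separate mice, so p-values measure the spread between libraries. The paper's numbers of male control, ischaemic and volume-depleted mice equal those of the male pulldowns here, a match by number alone.

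Ucp1 had 34.7, 52.7, 12.1 and 53.8 CPM in the 4 Control males and 0.544, 4.52, 0.630 and 1.99 in the 4 iAKI males. The groups did not overlap, and the log2 fold change was -4.28 (SE 0.65, adjusted p = 0.000775). Elovl3 had 9.06, 13.2, 4.69 and 7.40 CPM in Control and 0.198, 1.12, 0.0969 and 0 in iAKI males. It fell by 4.56 (SE 0.99, adjusted p = 0.00851). Cidea had 8.85, 9.01, 4.79 and 5.44 CPM against 0.346, 2.07, 0.920 and 0.229, again with no overlap, and fell by 2.96 (SE 0.50, adjusted p = 0.00175). Cox8b, at 5 to 12 counts a library in Control, had 0.421, 0.533, 0.247 and 0.562 CPM against 0.0989, 0.215, 0.0484 and 0.115, and fell by 1.81 (SE 0.52, adjusted p = 0.0416). Cox7a1, the other muscle and brown fat subunit, had 0.988 to 1.79 CPM in Control and 0.645 to 1.26 in iAKI males, and its fold change of -0.56 (SE 0.29, adjusted p = 0.294) was not called.

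Of the genes that brown and white fat share, Plin1 had 32.15, 34.7, 18.4 and 30.98 CPM in Control and 8.95, 13.3, 4.89 and 6.04 in iAKI males. These groups did not overlap, and Plin1 fell by 1.796 (SE 0.31, adjusted p = 0.00214). Fabp4 had 92.2, 110.2, 59.6 and 80.4 CPM against 52.9, 57.7, 32.3 and 35.9. It did not overlap either, but its fold change of -0.92 (SE 0.24, adjusted p = 0.0268) was under 2-fold. Adipoq had 3.67, 3.54, 0.790 and 2.58 CPM against 1.24, 1.46, 0.775 and 0.879, which overlap through 1 Control library, and it fell by 1.27 (SE 0.37, adjusted p = 0.0459). Retn (-1.497, SE 0.50, adjusted p = 0.0785) and Cfd (-0.70, SE 0.36, adjusted p = 0.281) were not called.

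Some fat genes outside the 10 were lower in the same comparison. Of 14 other brown fat genes 7 were called lower and none higher, among them Kcnk3 (-3.27), the thyroid hormone deiodinase Dio2 (-3.21) and the proton channel Otop1 (-2.92). Of 24 other adipocyte genes 10 were called lower and none higher, among them the beta-3 adrenergic receptor Adrb3 (-2.53) and Cidec (-1.33); several, such as Scd1 (-2.48) and Fasn (-1.33), serve lipid synthesis in other cells too. The summed level of the 14 overlapped (1191 to 1625 CPM in Control and 970.04 to 1644 in iAKI males), and that of the 24 did not (1689 to 2607 and 1058 to 1293 CPM). The sum of the 14 mostly follows Gyk and Ppargc1a, at means of 835 and 432 CPM over all libraries, while Otop1 stood at 1.97 and Ebf2 at 2.10. Zic1, a marker of classical brown fat, was at 0 in 56 of 69 libraries.

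Other markers moved with this contrast. The 4 collecting duct genes summed to 2386 to 3047 CPM in the Control males and to 1069 to 1193 in the iAKI males, which do not overlap, and their part in the result was not tested. The 11 adrenal genes summed to 26.5 to 139.9 CPM in the Control and 24.3 to 29.9 in the iAKI males. Without the 1 adrenal-rich Control library, Ucp1, Cidea, Elovl3 and Plin1 were still called, while Adipoq (-1.07, adjusted p = 0.124) and Cox8b (-1.83, adjusted p = 0.0628) were not. The 12 skeletal muscle genes summed to 4.50 to 5.78 CPM in Control and 3.83 to 5.93 in iAKI males, which overlap. The urothelium genes summed to 20.8 to 22.5 CPM in Control and 10.4 to 15.6 in iAKI males, and the endothelial genes to 104.3 to 193 and 199.7 to 239 CPM, the opposite direction; neither overlapped, and their part in the result was not tested. Within series A alone (2 Control and 4 iAKI males) 7 genes were called: Ucp1 at -4.49, Cidea, Elovl3, Adipoq, Plin1, Fabp4 and Retn, but not Cox8b (adjusted p = 0.0727). The share of all genes called within series A is not given.

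In females the same contrast gave 1 call. Ucp1 had 14.2, 56.2, 3.42 and 11.7 CPM in the 4 female Hoxb7 controls of 5.5 months and 1.46, 3.17 and 3.62 in the 3 iAKI females, which overlap by 1 library, and its log2 fold change was -2.95 (SE 0.81, adjusted p = 0.04975 in a fit of the 21 females alone). None of the other 9 genes was called there. Adipoq had 1.14 to 3.96 CPM in the female controls and 2.32 to 3.68 in the iAKI females, with a fold change of 0.53 (adjusted p = 0.564), opposite in sign to the males. The difference of the iAKI response between sexes, averaged over both drivers, was not called by edgeR for any of the 10 genes (0.553% of all genes were called in either direction). Cidea came nearest, at -1.70 (SE 0.52, adjusted p = 0.0686, 43 pulldowns), was the 1 gene with an unadjusted p under 0.05, and was the 1 gene called by DESeq2.

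**Figure D3:**
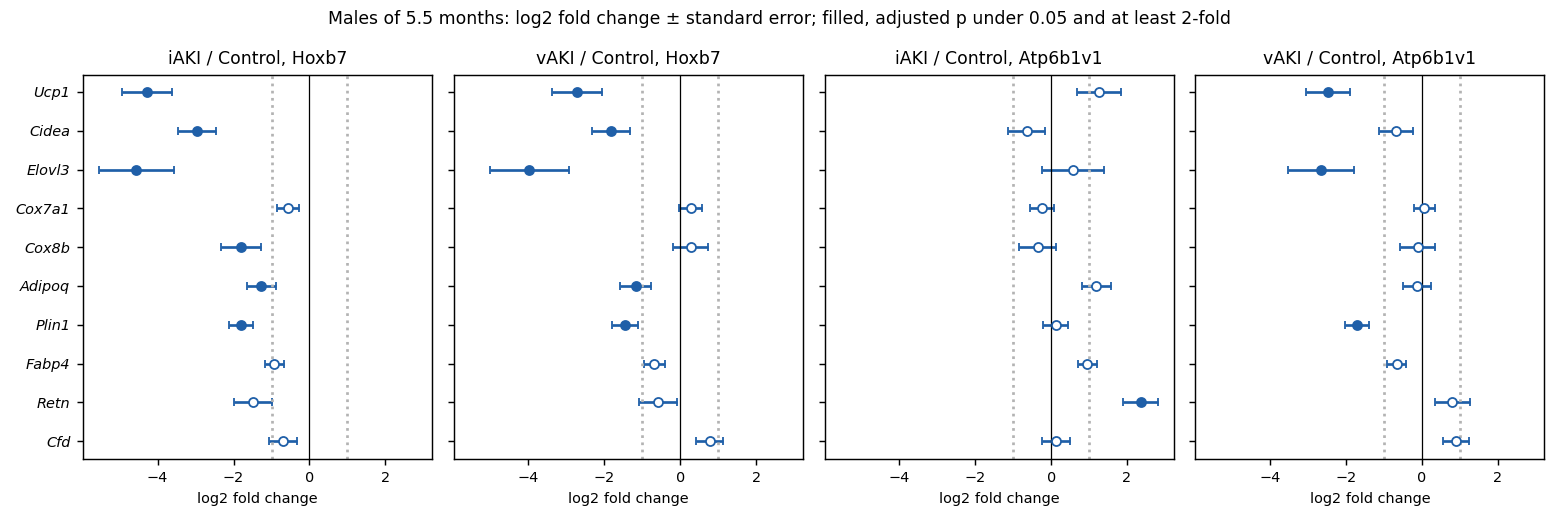
Log2 fold change of injured against control pulldowns in males of 5.5 months, with 1 standard error, for the 10 genes; filled points passed an adjusted p under 0.05 with at least a 2-fold change, and dotted lines mark 2-fold. In iAKI the 6 filled points of the Hoxb7 panel lie between -4.56 and -1.27, and the 1 filled point of the Atp6b1v1 panel is Retn at 2.36.

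Volume depletion (vAKI) gave fewer calls against a larger background. In Hoxb7 males 5 of the 10 genes were called lower (Ucp1, Cidea, Elovl3, Adipoq and Plin1) and none higher, while 6.81% of all genes were called lower. Ucp1 had 2.01, 10.6 and 4.44 CPM in the 3 vAKI males, below each of the 4 controls given above, and fell by 2.73 (SE 0.65, adjusted p = 0.00222). Elovl3 had 0, 1.41 and 0.0822 CPM and fell by 3.98 (SE 1.04, adjusted p = 0.00442). Plin1 had 9.62, 11.1 and 10.9 CPM and fell by 1.46 (SE 0.34, adjusted p = 0.00176). Cidea had 0.806, 3.11 and 1.89 CPM and fell by 1.83 (SE 0.51), and Adipoq had 1.31, 1.34 and 0.864 CPM and fell by 1.17 (SE 0.41, adjusted p = 0.0280). Adipoq overlapped its controls through 1 library, and it lost its call when any 1 of 5 libraries was left out (Control Hoxb7 Pulldown replicates 2 and 3, vAKI Hoxb7 Pulldown replicates 4, 6 and 7; over all 22 such fits the fold change ran from -1.47 to -0.97). The collecting duct genes summed to 1123 to 1483 CPM in the vAKI males, below their controls, and the skeletal muscle genes to 8.21 to 9.99 CPM, above their controls (4.50 to 5.78). In the same vAKI males the thick ascending limb genes summed to 762 to 850.1 CPM (controls 1329 to 2321), the urothelium genes to 6.595 to 10.4 (controls 20.8 to 22.5) and the mesothelium genes to 2.79 to 3.52 (controls 5.47 to 6.15), while the endothelial genes summed to 218 to 283 (controls 104.3 to 193). None of these lists overlapped its controls, and their part in the result was not tested.

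Cfd went the other way in vAKI Hoxb7 males, though it was not called. It had 4.28, 2.75 and 3.13 CPM against 2.49, 1.94, 1.43 and 2.06 in Control, which do not overlap, with a log2 fold change of 0.77 (SE 0.36, adjusted p = 0.105). Cox7a1 (0.27, SE 0.30) and Cox8b (0.27, SE 0.46) were near 0, with adjusted p = 0.526 and 0.713. In the 21 females alone none of the 10 genes was called by edgeR, and Ucp1 stood at -2.47 (SE 0.70, adjusted p = 0.269). Of 14 other brown fat genes 4 were called lower and 1 higher in the males, and of 24 other adipocyte genes 6 were called lower and none higher. The sex difference of the vAKI response was called for none of the 10 by edgeR or DESeq2, with no unadjusted p under 0.05 (0.241% of all genes were called in either direction).

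In vAKI Atp6b1v1 males Ucp1, Elovl3 and Plin1 were lower. In all, 3 of the 10 genes were called lower and none higher, and 1.7% of all genes were called lower. Ucp1 had 22.7, 25.9, 38.5 and 10.3 CPM in the 4 Control males and 2.78, 8.88, 3.20 and 1.91 in the 4 vAKI males, with no overlap, and fell by 2.47 (SE 0.59, adjusted p = 0.00718). Plin1 had 26.0, 21.4, 31.2 and 13.9 CPM against 8.88, 9.31, 5.44 and 3.70, also with no overlap, and fell by 1.72 (SE 0.31, adjusted p = 0.00109). Elovl3 had 1.84, 2.28, 13.8 and 3.21 CPM against 1.69, 1.09, 0.128 and 0.0579, again with no overlap, and fell by 2.65 (SE 0.88, adjusted p = 0.0440).

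The size of these differences was not the same in the 2 series, a difference that was not tested. In series A (2 Control and 2 vAKI males) Elovl3 stood at -0.57 (adjusted p = 0.808) and Ucp1 at -2.05 (adjusted p = 0.0639), and Plin1 alone was called, at -1.38. In series B (2 and 2) Elovl3 stood at -6.43, Ucp1 at -3.24 and Plin1 at -2.29, all called. Adipoq (-0.13, SE 0.37), Cox7a1 (0.06, SE 0.29) and Cox8b (-0.12, SE 0.45) were near 0 in the males, with adjusted p = 0.880, 0.954 and 0.934. The adrenal genes summed to 30.9 to 35.1 CPM in the vAKI males and 21.9 to 27.7 in their controls, and the 4 lymphocyte genes to 1.13 to 2.25 and 3.15 to 6.06 CPM; neither overlapped, and their part in the result was not tested. Of the other brown fat genes 2 of 14 were called lower and 1 higher here, and of the other adipocyte genes 1 of 24 was called, which was higher. In females Elovl3 had 0.122, 0.383 and 0.300 CPM in vAKI against 1.28 to 6.66 in Control, and fell by 3.49 (SE 1.04, adjusted p = 0.0254). Cox7a1 had 2.38, 2.20 and 2.33 CPM in these females against 1.02 to 1.45 in Control, and Cox8b 0.610, 1.25 and 1.05 against 0.192 to 0.426, both higher in each vAKI library but not called (adjusted p = 0.115 and 0.0756).

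After ischaemia 1 of the 10 genes was called in the Atp6b1v1 males, and it was higher. Ucp1 had 57.5, 78.2 and 38.99 CPM in the 3 iAKI males, each above the 4 Control males (10.3 to 38.5), with a log2 fold change of 1.25 (SE 0.58, adjusted p = 0.185) that was not called. Adipoq had 3.98, 4.81 and 2.46 CPM against 1.97, 1.36, 2.33 and 0.871, again each above the controls, at 1.19 (SE 0.38, adjusted p = 0.0527). Fabp4 had 186, 196 and 91.6 CPM against 64.1, 70.8, 126 and 61.7, at 0.96 (SE 0.26, adjusted p = 0.0238), under 2-fold. Retn was the 1 of the 10 genes called higher, against 1.14% of all genes. It had 2.69, 2.27 and 0.862 CPM in iAKI and 0.544, 0.339, 0.382 and 0.234 in Control, and rose by 2.36 (SE 0.45, adjusted p = 0.00315). In series A alone Retn stood at 2.45 (adjusted p = 0.00607) and in series B alone at 1.498 (adjusted p = 0.187), where 1 iAKI male was present. Among females Ucp1 had 55.4, 25.2 and 23.04 CPM in iAKI and 4.42 to 21.6 in Control, without overlap, at 1.75 (SE 0.70, adjusted p = 0.164), beside adrenal sums of 23.7 to 1691 CPM in these iAKI females and 25.3 to 743 in the controls.

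The count of genes called higher in this contrast depended on single libraries. It was 1 in all 22 males, 3 without iAKI Atp6b1v1 Pulldown replicate 5 or without Control Atp6b1v1 Pulldown replicate 10, and 2 without Control Hoxb7 Pulldown replicate 4. Adipoq was called in each of these 3 fits. None of the other fat genes was called higher in this contrast. Of 24 other adipocyte genes 4 were called lower (Thrsp, -2.87, Fasn, -1.54, Scd1, -1.41, and Aoc3, -1.29), and of 14 other brown fat genes 1 was called lower (Gyk, -1.12). The share of all genes called lower in this contrast is not given, so counts of genes called lower here are descriptive. The 14 summed to 776 to 1093 CPM in the iAKI males and 1398 to 1651 in their controls, which do not overlap. This sum mostly follows Gyk and Ppargc1a (means of 835 and 432 CPM over all libraries), so it says little of the low genes of the list. The adrenal genes summed to 22.4 to 23.3 CPM in the 3 iAKI males and to 21.9 to 27.7 in their controls, and the collecting duct genes to 767 to 1443 and 851 to 1110 CPM, which overlap. The skeletal muscle genes summed to 3.84 to 4.35 CPM in the iAKI males and 6.37 to 7.46 in their controls. The proximal tubule genes summed to 511 to 771 CPM and 1386 to 2679 in the controls, with 1 of 3 called lower, and the mesothelium genes to 3.33 to 6.60 CPM and 2.18 to 2.95 in the controls, with 1 of 3 called higher. These 3 lists did not overlap their controls, and their part in the result was not tested.

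The difference between the drivers in the iAKI response was tested directly in the 22 males. In this test 7 of the 10 genes were called higher in Atp6b1v1 than in Hoxb7 and none lower, against 1.6% of all genes called higher. The differences were 5.53 (SE 0.86, adjusted p = 0.00240) for Ucp1, 5.14 (SE 1.28, adjusted p = 0.0169) for Elovl3, 3.85 (SE 0.67, adjusted p = 0.00333) for Retn and 2.46 (SE 0.53, adjusted p = 0.00882) for Adipoq. Cidea (2.31, adjusted p = 0.0401), Plin1 (1.91, adjusted p = 0.0124) and Fabp4 (1.88, adjusted p = 0.00462) were also called, and Cox8b (1.45, SE 0.72), Cfd (0.83, SE 0.51) and Cox7a1 (0.32, SE 0.43) were not. Within series A, 7 genes were called. In a fit of both sexes 3 genes were called (Ucp1 at 5.13, Retn and Fabp4), and in the 21 females edgeR called none, with Ucp1 at 4.70 (SE 1.07, adjusted p = 0.339). The vAKI response did not differ between drivers past the threshold for any of the 10 genes by edgeR or DESeq2, with no unadjusted p under 0.05, and 2.93% of all genes were called there in either direction. Among the lists, 8 of 24 other adipocyte genes and 4 of 14 other brown fat genes were called higher in the iAKI difference, with 0 and 1 lower.

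Among controls, 2 of the 3 secreted factors, Retn and Cfd, were lower in males. Retn had a median of 6.35 CPM in the 11 male Total libraries (2.92 to 9.80) and of 14.5 in the 10 female ones (9.66 to 32.8), sets that overlap narrowly. In all 42 controls its log2 difference, male against female, was -1.20 (SE 0.19, adjusted p = 1.68e-06). Cfd had a median of 69.2 CPM in males (37.2 to 159.6) and 142 in females (105.8 to 324) in Total, and its difference was -1.14 (SE 0.17, adjusted p = 4.24e-07). These 2 of the 10 genes were called lower in males and none was called higher, against 3.14% of all genes called lower. Adipoq, the third, stood at -0.40 (SE 0.18, adjusted p = 0.0816) and was not called. Ucp1 stood at 0.77 (SE 0.27, adjusted p = 0.0294), under 2-fold and not called. Pulldown and Total libraries of controls may come from the same mice. The 42 libraries were tested as separate ones, so these standard errors and adjusted p-values may be too small. In the 21 control pulldowns alone Cfd was called (-1.14) and Retn was not (-0.98, adjusted p = 0.0589).

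The adrenal genes moved with sex in these libraries. All 11 were called lower in males, and their sum ran from 12.3 to 157.5 CPM in male and from 15.1 to 1388 in female Total libraries of 5.5 months. Without the libraries over 100 CPM, Retn stood at -1.21 (adjusted p = 5.45e-05), Cfd at -1.19 (adjusted p = 1.39e-05) and Ucp1 at 1.08 (adjusted p = 0.00573, then called).

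Covariation from library to library was read as the correlation of log2 CPM after the mean of each set of like libraries (treatment, driver and sex) was taken off, so that differences between these sets do not make it. Differences between series or ages within a set were not taken off and can add to it. In the 48 pulldown libraries 27 of the 45 pairs of genes were correlated at an adjusted p under 0.05, all of them positively. In the 21 Total libraries 15 of 45 were, again all positively, and each of these 15 pairs was also among the 27. By Spearman's rho 26 and 10 pairs were called. Pairs of other genes were not counted, so the 27 and 15 pairs are not shown to be particular to the fat genes. The p-values came from two-sided permutation within sets (100000 permutations, smallest possible p = 1e-05) and were adjusted over the 45 pairs. Pulldown and Total libraries of controls may come from the same mice, so the 2 kinds of library are not independent of each other.

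The 4 brown fat genes Ucp1, Cidea, Elovl3 and Cox8b varied together. In Total, Ucp1 and Cidea gave r = 0.90 (rho = 0.80, adjusted permutation p = 0.00015 for r and 0.0024 for rho), and Cidea and Cox8b r = 0.89 (rho = 0.77, adjusted permutation p = 0.000225 and 0.00368). Cidea and Elovl3 gave r = 0.80 and Ucp1 and Elovl3 r = 0.73. In the pulldown the same 4 pairs gave r of 0.74, 0.64, 0.79 and 0.67. The 6 pairs among these 4 genes were called in both kinds of library by r; Ucp1 and Cox8b were not called in Total by rho (0.55, adjusted permutation p = 0.0886). Without the 2 libraries farthest from the median of Ucp1, Ucp1 and Cidea gave r = 0.89 in Total and 0.77 in the pulldown.

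The 3 secreted factors also varied together, though Adipoq was correlated with Plin1 and Fabp4 to a like degree. In Total, Retn and Cfd gave r = 0.89 (rho = 0.89, adjusted permutation p = 0.00015 and 0.000225), Adipoq and Cfd r = 0.81 (rho = 0.87) and Adipoq and Retn r = 0.77 (rho = 0.76). In the pulldown the 3 pairs gave r of 0.67, 0.71 and 0.70, and all 3 were called in both kinds of library. Adipoq gave r = 0.72 with Fabp4 and 0.68 with Plin1 in the pulldown, and 0.63 and 0.73 in Total, all called. Without the 2 libraries farthest from the median of Retn, Retn and Cfd gave r = 0.78 in Total and 0.66 in the pulldown.

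Few pairs joined the brown genes to the secreted factors. Of the 15 pairs that join one of the 5 brown genes to Adipoq, Retn or Cfd, 0 were called in Total (r from -0.23 to 0.40, median 0.02) and 3 in the pulldown (r from -0.01 to 0.44, median 0.21). The 3 called pairs each joined Adipoq to Ucp1, Cidea or Elovl3. Ucp1 and Retn gave r = -0.23 (rho = -0.29, adjusted permutation p = 0.544 and 0.383) in Total and 0.23 in the pulldown, and Ucp1 and Cfd gave -0.21 and 0.24. Plin1 and Fabp4 were correlated with genes of both sets in the pulldown, where 8 of their 10 pairs with brown genes and 6 of 6 with secreted factors were called, against 4 of 10 and 2 of 6 in Total. Cox7a1 was called in none of its 9 pairs in either kind of library by Pearson's r, and its highest r was 0.52, with Fabp4 in Total (adjusted permutation p = 0.140).

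**Figure D4:**
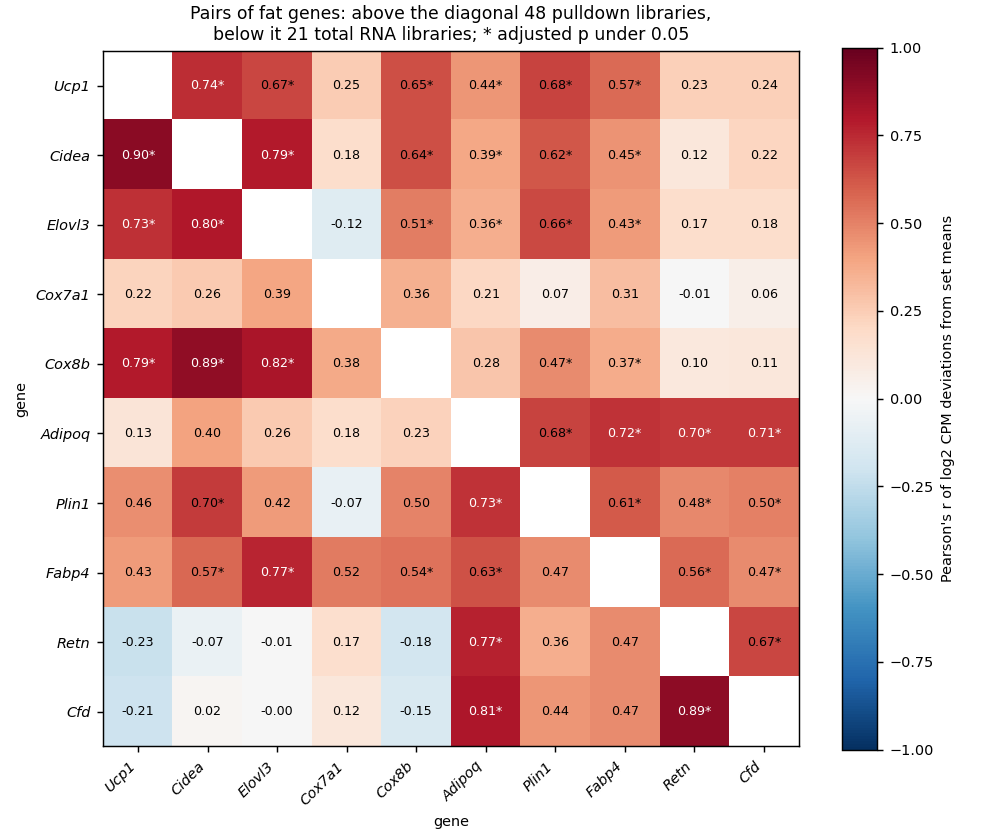
Pearson's r of log2 CPM deviations from set means for each pair of the 10 genes (color scale from -1 to 1); cells above the diagonal are the 48 pulldown libraries, cells below it the 21 Total libraries, and a star marks an adjusted p under 0.05. Ucp1, Cidea, Elovl3 and Cox8b are correlated with each other (0.51 to 0.90), as are Adipoq, Retn and Cfd (0.67 to 0.89), and the row and column of Cox7a1 hold no star.

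Within series no pair passed adjustment. The sets of like libraries are small there, and the part of differences between series in the pairs was not tested. In series A pulldowns (28 libraries) 13 of 45 pairs had an unadjusted permutation p under 0.05, 43 of 45 were above 0 and the median r was 0.37, against 0.44 over all 48; in series B (9 libraries) 10 did, with a median r of 0.67. In Total, series A (6 libraries) had 0 such pairs and a median r of 0.11, with 23 of 45 pairs above 0 and r from -0.95 to 0.97. Series B (7 libraries) had 5 such pairs and a median of 0.66, with 43 of 45 above 0. Without the adrenal-rich libraries 24 pairs were called in the pulldown and 12 in Total. In males alone 13 pairs were called in the pulldown and 3 in Total, and in females alone 19 and 12.

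**Figure D5:**
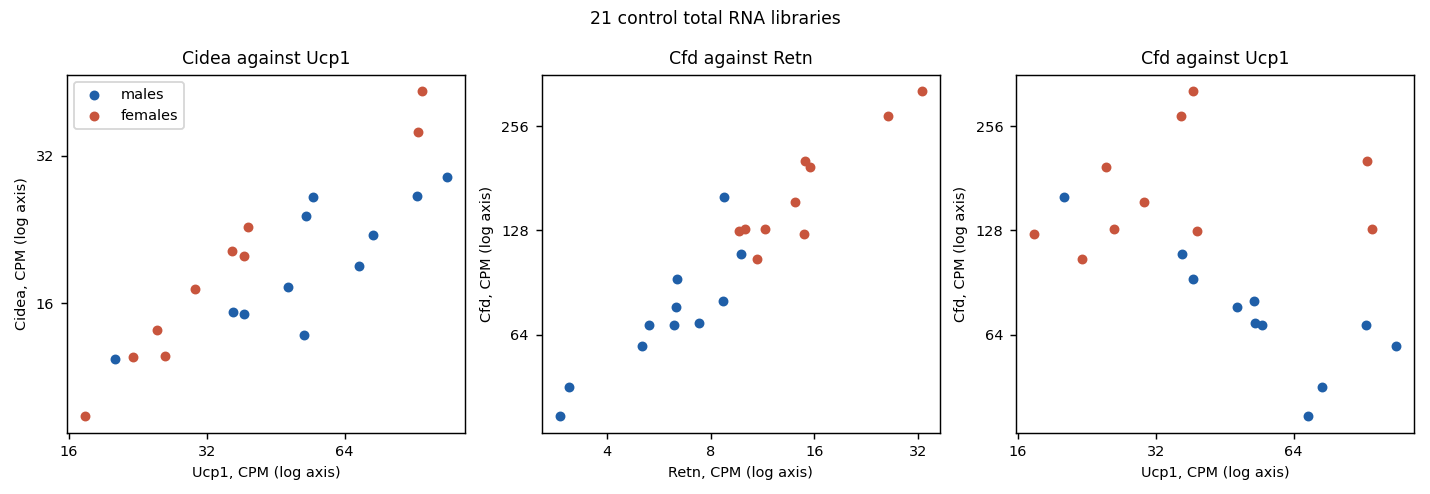
Levels in the 21 control Total libraries (CPM, log axes; blue males, red females), before any set mean is removed: Cidea against Ucp1, Cfd against Retn, and Cfd against Ucp1. Cidea follows Ucp1 within each sex, and Cfd follows Retn with the females above the males. Cfd tends to be lower where Ucp1 is higher in these levels (Spearman's rho = -0.50), and after removing set means Pearson's r was -0.21.

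The genes whose levels most resembled those of Ucp1 and Adipoq, among genes with a mean of at least 1 CPM, included other fat genes. Over the 48 pulldown libraries (Spearman's rho of log2 CPM, group differences left in, given as a description) the 10 genes nearest to Ucp1 were Agpat2 (0.82), Plin1 (0.82), Otop1 (0.82), Elovl3 (0.81), Prkar2b (0.78), Arxes2 (0.77), Dio2 (0.76), Fabp4 (0.74), Mrps7 (0.71) and Clstn3 (0.70), and Cidea ranked 11 of 13929. Over the 21 Total libraries they were Cidea (0.88), Otop1 (0.86), Elovl3 (0.78), Slc22a4 (0.74), Hk2 (0.74), Fam120c (0.70), Gpcpd1 (0.69), Gbp8 (0.65), Slc51a (0.65) and Top2a (0.64). Otop1 and Elovl3 stood on both lists. In Total, Cfd (rho = -0.50, rank 13536 of 13887) and Retn (rho = -0.51, rank 13570) were among the genes least like Ucp1, with sex differences left in. In the pulldown Cfd stood at -0.18.

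For Adipoq in the pulldown the 10 nearest were Car3 (0.74), Abcd2 (0.73), Fabp4 (0.72), Cidec (0.70), Ccdc80 (0.69), Adrb3 (0.68), Slc36a2 (0.67), Kcnk3 (0.67), Smoc1 (0.67) and B3galt2 (0.66). Among the nearest in Total were Aoc3 (0.90), Arxes2 (0.87), Car3 (0.87), Cidec (0.83), Aldoa (0.83), Pnpla3 (0.82), Gsn (0.82), 1700067K01Rik (0.81) and Col18a1 (0.81). Car3, a carbonic anhydrase abundant in fat, and the lipid droplet gene Cidec stood on both lists. Ucp1 ranked 269 of 13929 genes in likeness to Adipoq in the pulldown (rho = 0.45) and 6070 of 13887 in Total (rho = -0.0013).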

How the data were processed

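RNA of whole mouse kidneys, pulled down or total, was sequenced on an Illumina HiSeq. Per the labels and the study's methods, the authors trimmed reads with Trimmomatic 0.36, aligned them to mm10 with STAR 2.5.3a and counted them per gene with HTSeq 0.6.1p2; the deposited values are raw counts, 1 column a library, and the annotation is not given in the sources used here. No column was identical to another.

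Genes with at least 2 counts over all libraries (21175 of 24411) were tested with edgeR 4.0.16 (R 4.3.3): TMM factors, quasi-likelihood F test, Benjamini-Hochberg adjustment over all genes, called at adjusted p under 0.05 and an absolute log2 fold change of at least 1. The standard error is the log2 fold change divided by the root of F. Injury was tested in 22 male pulldowns of 5.5 months, the driver difference as a contrast in the same fit, the sex difference of responses in 43 pulldowns, and pulldown against total and sex in 42 controls. Levels are CPM with TMM factors over the 69 libraries; correlations used log2 CPM with a prior count of 2. Scripts were tested on simulated data. Depth (12618062 to 30305464 counts) leaves Cox8b at 1 to 35 counts in the pulldowns. HTSeq was run with its defaults, and the strand of the libraries is not given in the sources used here, so reads of overlapping genes cannot be told apart.

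The members, the lists and the tests were chosen with earlier results of these data known. Named genes are the 10 members, genes of fixed lists past the threshold or at 0, the relatives, and the 10 genes most like Ucp1 and Adipoq, of which 1 is not reported here. The library series were read from the library numbers in the labels. Alternatives were DESeq2 1.42.0, its size factors, other filters, no fold threshold, other sample sets, covariates, a replicate block and leaving out each library; the adrenal, series-only and driver-difference alternatives were chosen after seeing the data. Coordinates come from GENCODE vM21, promoters from RefSeq (GRCm38.p6).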

Additional observations from a re-analysis of the deposited data

Results flagged for a closer look

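Within groups of 4 to 10 libraries, 12 of 120 tests of single-library gaps in the 10 genes (Dixon's test on CPM) passed the 95% critical value. The tests share libraries, since males and females of a group were also tested alone, and the genes vary together. The 12 are therefore not set against a chance rate. Replicate 3 of vAKI Atp6b1v1 Pulldown, a female, was the highest of 7 libraries for Cfd (23.9 CPM, next 8.15), Retn (3.42 CPM, next 1.35) and Adipoq (4.64 CPM, next 2.55). Replicate 10 of Control Atp6b1v1 Pulldown was the highest of 4 males for Elovl3 (13.8 CPM, next 3.21) and Fabp4 (126 CPM, next 70.8). Elovl3 was also highest in replicate 4 of iAKI Atp6b1v1 Pulldown (15.6 CPM of 6 libraries) and replicate 1 of vAKI Hoxb7 Pulldown (3.48 CPM of 7). Fabp4 was lowest in replicate 3 of vAKI Hoxb7 Pulldown, at 27.97 CPM, both among the 7 libraries and among the 4 females, and highest in replicate 12 of Control Atp6b1v1 Pulldown, at 167 CPM among 4 females. Cox8b was highest in replicate 2 of iAKI Hoxb7 Pulldown (1.01 CPM of 7 libraries), and Cfd in replicate 5 of iAKI Hoxb7 Pulldown (2.496 CPM of 4 males).

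The iAKI response differed between the drivers for 7 of the 10 genes in males, tested as a contrast of the 2 responses with edgeR. The differences, Atp6b1v1 minus Hoxb7 on the log2 scale, were 5.53 for Ucp1, 5.14 for Elovl3, 3.85 for Retn, 2.46 for Adipoq, 2.31 for Cidea, 1.91 for Plin1 and 1.88 for Fabp4.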

How the results depend on the processing

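Counts below are of the 10 genes called. The shares of all genes given above belong to the main fits, and none is given for the alternative fits. A change in a count is therefore not set against the change over all genes. With both sexes in one fit, 3 were called in iAKI Hoxb7 Pulldown (6 in males), 3 in vAKI Hoxb7 (5), 3 in iAKI Atp6b1v1 (1) and 3 for the driver difference in iAKI (7). In females alone the counts were 1, 0, 0 and 0 for these, and 1 in vAKI Atp6b1v1 (3); Adipoq in iAKI Hoxb7 turned from -1.27 to 0.53, and the cause was not tested. For iAKI Atp6b1v1 the count was 2 with no fold threshold, with DESeq2, with filterByExpr and with series as a covariate, 3 with 25 males, 3 in series A and 0 in series B. In series A 1 was called in vAKI Atp6b1v1 and 1 for the driver difference in vAKI (0). The sex difference in controls gave 1 in pulldowns alone (2), and that of the iAKI response 1 with DESeq2 (0). Correlated pairs numbered 0 in series A and 0 in series B for both kinds of library, 13 in males of the pulldown (27), 3 in males of Total (15) and 24 in Total with group means left in; series C alone was not run, since its sets hold too few libraries.

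With the replicate number as a block (replicate block), the counts were 3 in iAKI Hoxb7, 1 in vAKI Hoxb7 (Cfd, higher), 0 in iAKI Atp6b1v1 and 1 in vAKI Atp6b1v1. In controls they were 9, 8 and 0 for Hoxb7 against Total, Atp6b1v1 against Total and Atp6b1v1 against Hoxb7. Replicate 4 is Hoxb7Cre in Control Hoxb7 Pulldown and Atp6b1v1Cre in Control Total, so a shared number does not mark 1 mouse there. The block can thus join unrelated libraries, and its counts are given as a description only. The labels do not say whether libraries of the same number otherwise belong together. In iAKI Hoxb7 the deviations of same-numbered libraries had a mean correlation of -0.20 over 2 pairs, too few to settle it. Same-numbered control pulldown and Total libraries were not compared.

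Leaving out each library in turn gave 4 to 7 genes in iAKI Hoxb7, 4 to 5 in vAKI Hoxb7, 1 to 3 in iAKI Atp6b1v1, 2 to 3 in vAKI Atp6b1v1, 5 to 8 for the iAKI driver difference, 0 to 0 for that of vAKI, 7 to 8 and 8 to 8 against Total, 0 to 0 between drivers and 2 to 2 for sex. Adipoq lost its iAKI Hoxb7 call in 12 of 22 such fits (-1.59 to -1.07), Cox8b in 6 (-2.25 to -1.57), Elovl3 its vAKI Atp6b1v1 call in 7 (-3.34 to -1.56) and Cidea its driver difference in 8 (1.98 to 3.21). Depth limits Cox8b and Retn, which fell to 1 count in a library.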
